A study of Mus musculus with 54 samples.

Results

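The response to human chorionic gonadotropin (hCG), an analog of luteinizing hormone (LH), was described on the ruptured side of mouse ovarian follicles. The members were the 27 libraries whose titles put them on the ruptured side, of 54 libraries in the series. They were 13 libraries of the ruptured side post-hCG and 14 of the putative ruptured side (no hCG). Follicles came from CD-1 mice, an outbred stock, at 14 to 16 days of age. They grew for 8 days inside alginate beads, used to preserve their structure. Antral follicles then spent 12 h in maturation medium with serum, epidermal growth factor and recombinant FSH, and the medium of the post-hCG group also held hCG at 1.5 IU/ml. Each follicle was cut by hand into the side that ruptures and the side that does not, and in follicles without hCG, which do not rupture, the cut was placed by the swelling of the antral cavity. The no-hCG side is therefore putative. No gene was altered in either group, EGF and FSH were present in both, and the isolated follicles had no blood supply. The labels do not say which libraries came from the same follicle or mouse, so the spread between libraries may in part be technical.

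The LH surge turns the granulosa cells of a mature follicle from estrogen-producing, FSH-driven cells into luteinizing cells that make progesterone. Its receptor raises cAMP and induces EGF-like ligands, prostaglandin synthesis and the progesterone receptor, whose targets include proteases and vasoactive peptides needed for rupture. In the same hours proliferation stops and genes of the FSH-driven state, among them aromatase and the inhibin subunits, are switched off.

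Total counts were 1766651 to 2834734 per library post-hCG (median 2192172) and 1497071 to 2028982 without hCG (median 1744895). The first principal component of log2(TPM + 1) over 9702 genes held 44.2% of the variance, and the libraries scored 40.4 to 49.2 post-hCG and −48.7 to −29.3 without hCG, with no overlap. The second held 8.71% and did not separate the media. In the labels the tissue is called cumulus-oocyte complex, but by the study's methods this complex was taken out once the sides had been cut. The summed level of 12 oocyte markers reached 1.1 TPM at most post-hCG and 29.3 TPM in 1 library without hCG, and 8 of the 12, *Zp1*, *Zp2* and *Zp3* included, were at 0 in all post-hCG libraries. Of the granulosa markers, *Inha* stood at 712 TPM or more in each of the 27 libraries, *Gatm* at 0.94 TPM or less and *Amh* at 0 throughout. Of 12 theca markers, 5 were tested, of which 1 rose (*Mgarp*) and 3 fell. The sum of all 12 was higher in median post-hCG, at 139.5 to 498.9 TPM (median 318.8) against 77.8 to 908.7 TPM without hCG (median 172.1). Without *Mgarp* the order of the medians turned, at 4.5 to 53.7 TPM post-hCG (median 8.2) and 23.8 to 811.9 TPM without hCG (median 66.0). By this sum 6 no-hCG libraries stood at 207.0 to 811.9 TPM and the other 8 at 79.7 TPM or less. Theca cells surround the granulosa layer. These 6 libraries, called theca-rich from here on, held more transcripts of the theca markers other than *Mgarp* than the rest. Their part in a result was measured by leaving them out where a result moved. In bulk tissue, fewer cells of a type and less RNA per cell cannot be told apart. Sums of 11 immune markers reached 3.8 TPM post-hCG and 40.3 TPM without hCG, those of 10 endothelial markers 25.3 and 16.0 TPM, those of 8 smooth muscle markers 4.7 and 46.2 TPM and those of 9 surface epithelium markers 6.3 and 9.8 TPM. Library names end in a letter and a number, read here as a plate well, which the labels do not state. By this reading the post-hCG libraries lay in rows C and D and the no-hCG libraries in rows G and H, so the plate row and the medium cannot be told apart. Among post-hCG libraries, those of row C scored −40.3 to −6.8 on the second component and those of row D −11.0 to 38.8. Their total counts were 2229008 to 2834734 (row C) and 1766651 to 2228084 (row D).

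**Figure D1:**
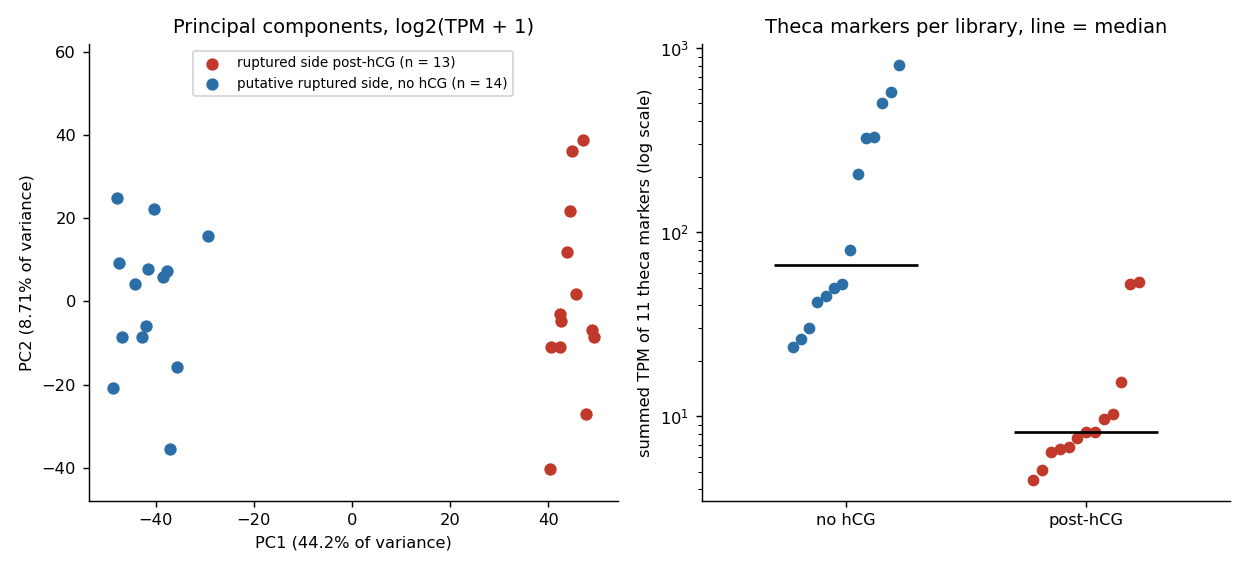
The left panel plots each of the 27 libraries (points) by its scores on the first and second principal components of log2(TPM + 1), and the 13 post-hCG libraries (red) all lie at 40.4 or more on the first, the 14 no-hCG libraries (blue) at −29.3 or less. The right panel plots the summed TPM of the theca markers without *Mgarp* per library on a log axis, with a line at the median (8.2 TPM post-hCG, 66.0 TPM without hCG), and shows the 6 theca-rich libraries at 207.0 TPM or more.

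The comparison asks which genes of the ruptured side respond to hCG. Of 8531 genes tested (edgeR, with a positive log2 fold change, log2FC, meaning higher post-hCG), 5129 (60.1%) changed at a false discovery rate (FDR) of 0.05, with 2532 higher and 2597 lower, which is 29.7% and 30.4% of the genes tested. A change of at least 2-fold was found for 829 genes that rose (9.72%) and 684 that fell (8.02%), and of at least 16-fold for 62 and 60. The range of TPM did not overlap between the groups for 293 of the genes higher post-hCG (3.43%) and 370 of those lower (4.34%). The biological coefficient of variation, the spread of a gene between libraries of a group, was 0.239. Scaling by library totals in place of TMM factors moved the median log2FC of all genes from −0.00 to −0.33 and the split to 1376 higher and 4242 lower, and limma on log2(TPM + 1) gave 1568 and 3005, so values near 0 depend on the scaling. Without the 6 theca-rich libraries 4938 genes passed, and libraries of rows C and G alone gave 4086 and those of rows D and H alone 4280.

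**Figure D2:**
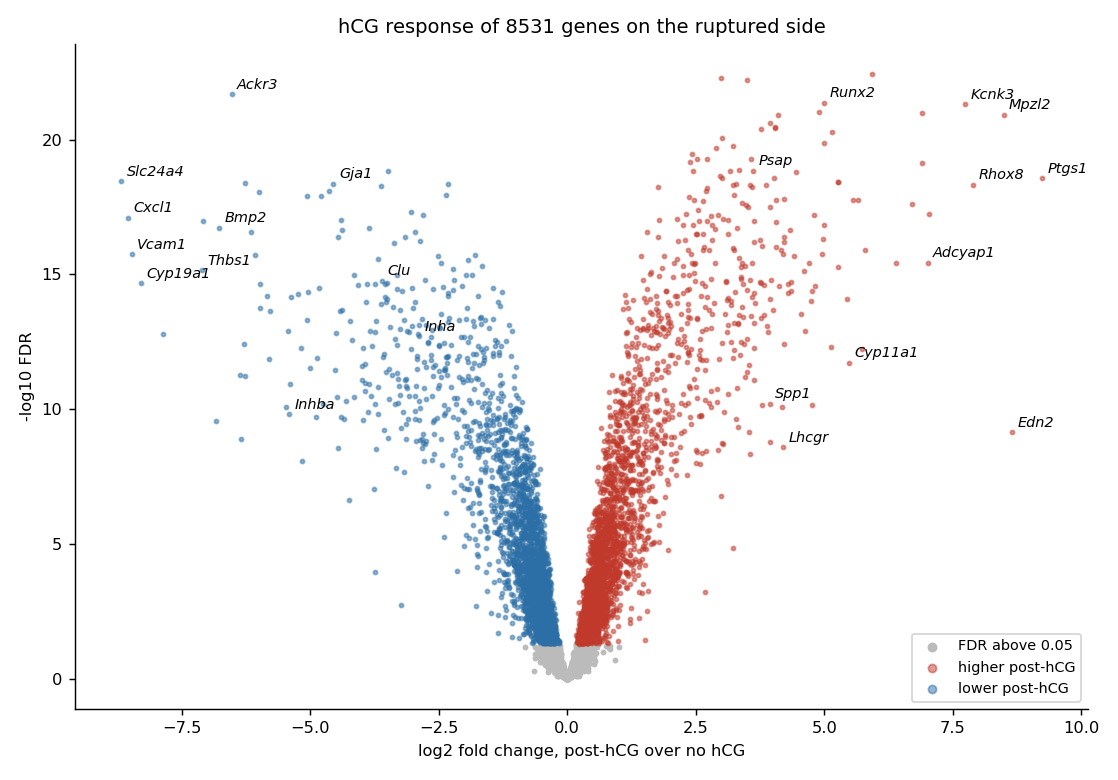
Each point is 1 of 8531 genes, with the log2 fold change (post-hCG over no hCG, ruptured side) on the x axis and −log10 FDR on the y axis, red for higher, blue for lower and grey for an FDR above 0.05. *Ptgs1* (9.24) lies farthest right and *Slc24a4* (−8.68) farthest left among the labelled genes.

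The genes that rose most encode a prostaglandin synthase, vasoactive and neuropeptide ligands, an adhesion protein and an ion channel. *Ptgs1*, the cyclooxygenase COX-1 (chromosome 2, 36230426 to 36252272, GRCm38), was at 0 to 0.38 TPM without hCG (median 0) and at 23.4 to 73.3 TPM post-hCG (median 31.9), a log2FC of 9.24 (SE 0.40, FDR = 2.64e-19). Its 14 no-hCG libraries held 7 counts together. *Edn2*, the vasoconstrictor peptide endothelin 2 (chromosome 4, 120161206 to 120167360), had no count in any of the 14 libraries without hCG and 3.84 to 33.8 TPM post-hCG (median 10.1, 665 counts), which is at least 188-fold higher against a floor of 3 counts over the no-hCG group. *Mpzl2*, an adhesion protein of epithelial junctions, went from 0.13 to 2.95 TPM (median 1.29) to 211 to 583 TPM (median 434), a log2FC of 8.49 (SE 0.29). The lowest post-hCG library thus held more than 70 times the TPM of the highest no-hCG library. *Rhox8*, a reproductive homeobox gene of the X chromosome, rose from a median of 0.315 TPM to 70.3 TPM (log2FC 7.89, SE 0.35), and *Kcnk3*, a potassium leak channel, from 0 to 8.47 TPM (log2FC 7.74, SE 0.26). *Asgr1*, known from liver as the asialoglycoprotein receptor, rose from a median of 0.365 to 47.7 TPM and *Xpnpep2*, a membrane aminopeptidase, from 0.235 to 22.9 TPM (log2FC 6.91 and 6.90). Also among the 10 largest rises were *Adcyap1* (7.01, described with the progesterone receptor targets) and 2 genes known only by clone names, of which 1 had a log2FC of 7.03 and the other was *AC101869.3*, whose 3 counts without hCG give a ratio of 129 with a 95% counting interval of 44 to 630. The ranges of the groups did not overlap for any of these 10 genes. They were picked for a large log2FC and a count in each post-hCG library, so this follows in part from the choice.

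The genes that fell most were a calcium exchanger, an inflammatory chemokine and adhesion molecule, aromatase, a matrix protein and a growth factor. *Slc24a4*, a sodium/calcium-potassium exchanger, lay between 6.39 and 25.1 TPM without hCG (median 13.2), and post-hCG 2 counts were left over 13 libraries. Its count ratio was 928 with a 95% interval of 256 to 7669, which covers counting error only. *Cxcl1*, a chemokine that attracts neutrophils (chromosome 5, 90891241 to 90893115), stood at 269 to 2070 TPM without hCG (median 1245), rank 68 among all genes by median TPM, and at 0.84 to 8.34 TPM post-hCG (median 1.75), a log2FC of −8.55 (SE 0.42, FDR = 7.8e-18). *Vcam1*, a leukocyte adhesion molecule, went from 31.7 to 301 TPM (median 70.2) to 0 to 3.3 TPM (median 0.2), a log2FC of −8.47 (SE 0.47). Each post-hCG library lay below all no-hCG libraries for these 3 genes, which were picked for a large log2FC and a count in each no-hCG library. *Prdm1*, a transcriptional repressor, fell from a median of 7.98 TPM to 0 (log2FC −7.87, SE 0.58), *Ackr3*, a scavenging chemokine receptor, from 61.9 to 0.65 TPM (log2FC −6.53, SE 0.21) and *Myocd*, a coactivator of smooth muscle genes, from 5.88 TPM to 0 (log2FC −6.84, SE 0.69). The groups overlapped for *Myocd*, since 1 post-hCG library reached 3.83 TPM, and did not for the other 2. *RP23-325H23.1*, a clone-named gene with a single count post-hCG, had a ratio of 449 (95% counting interval 80.1 to 17789). *Cyp19a1*, *Thbs1* and *Bmp2* complete the 10 and are described with their groups.

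By absolute level, the side also changed its most abundant messages. *Spp1*, the secreted phosphoprotein osteopontin, took 187 to 4731 TPM without hCG (median 1120) and 15246 to 33777 TPM post-hCG (median 23734), which moved it from rank 79 to rank 2 by median TPM (log2FC 3.94, SE 0.37, FDR = 6.21e-11). Its mean rose by 40714 CPM (counts scaled to the library total), the largest difference of any gene that rose. *Psap*, the precursor of the lysosomal saposins, went from a median of 324 to 3748 TPM (log2FC 3.61, SE 0.15), *Idh1*, a cytosolic enzyme that makes NADPH, from 186 to 2904 TPM (4.02, SE 0.17), and *Sdc1*, a heparan sulfate proteoglycan, from 112 to 2203 TPM (4.01, SE 0.27). *Heg1*, a membrane protein known from heart and vessel development, rose from 33.9 to 939 TPM (4.98, SE 0.26), *Ephx2*, an epoxide hydrolase, from 787 to 5192 TPM (2.62, SE 0.21) and *Ywhaz*, a 14-3-3 adaptor, from 1051 to 3619 TPM (1.96, SE 0.14). For all of these the groups did not overlap. Among messages that fell, *Gja1*, *Inha* and *Clu* lost the most CPM (−18598, −17200 and −9373). *Clu*, the secreted chaperone clusterin, was at 1075 to 6818 TPM without hCG and at 143 to 385 TPM post-hCG (log2FC −3.60, SE 0.22). The mitochondrially encoded *mt-Atp6* (−0.64, SE 0.17) and *mt-Cytb* (−0.50, SE 0.13) and the cytoskeletal *Actg1* (−0.42, SE 0.12) fell by far less in fold and stand here because of their abundance. *mt-Cytb* did not pass in rows C and G alone (FDR = 0.0926), nor *Actg1* in rows D and H alone (FDR = 0.0607).

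**Figure D3:**
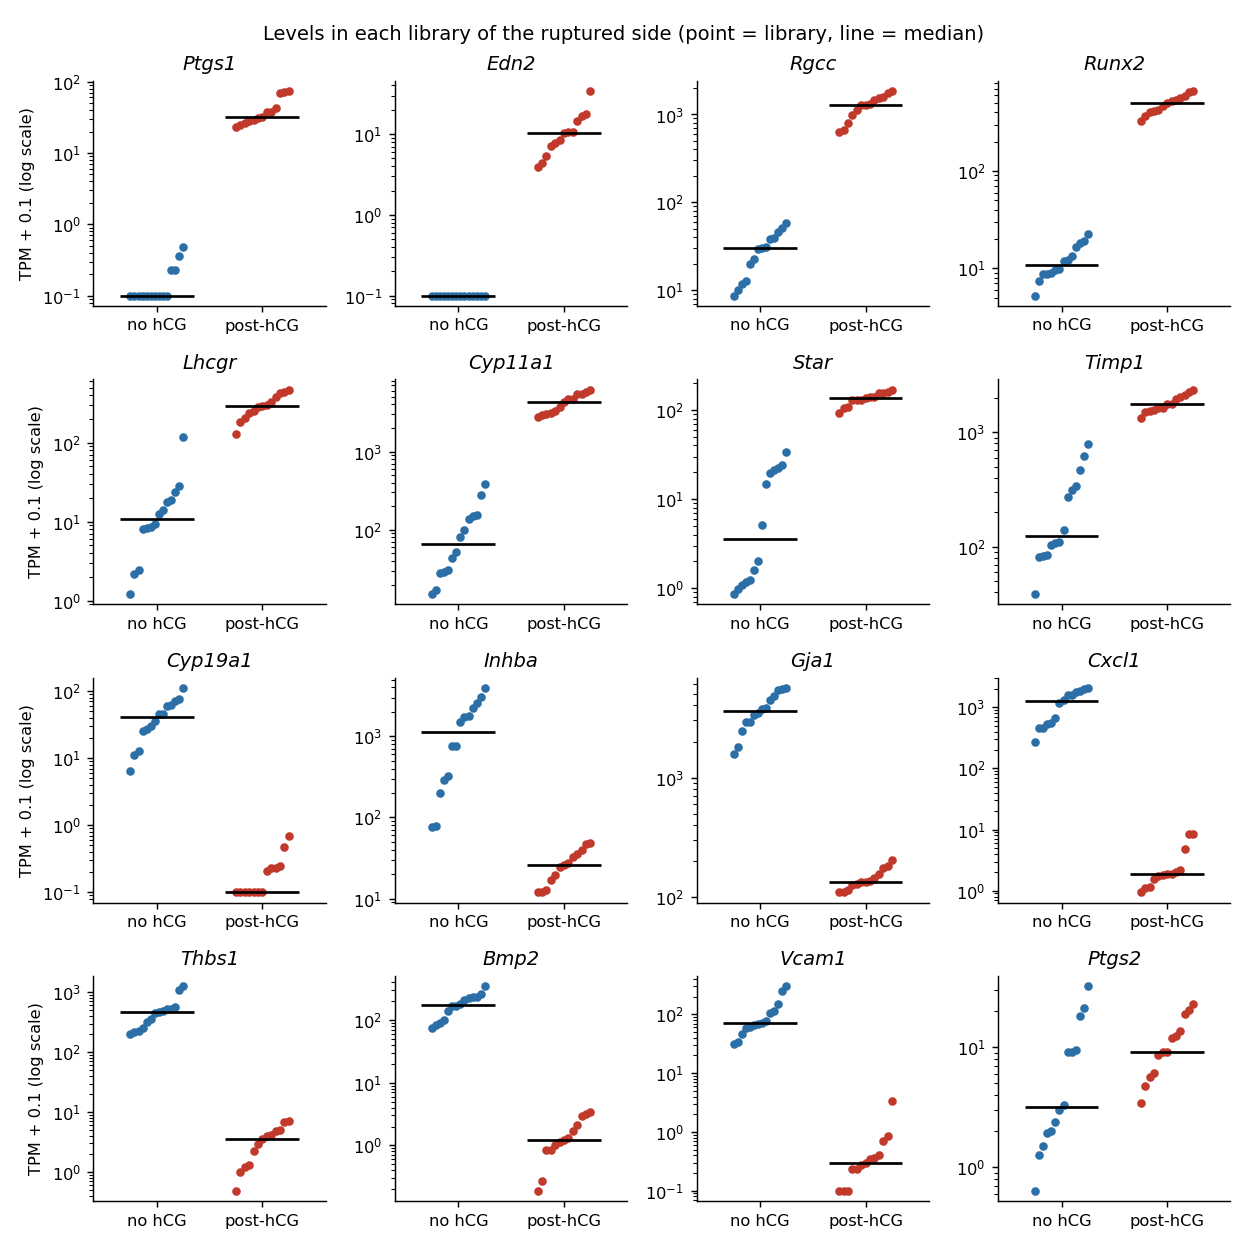
Each panel plots 1 gene, with TPM + 0.1 on a log axis for the 14 no-hCG libraries (blue) and the 13 post-hCG libraries (red) of the ruptured side, sorted within a group, and a line at the median. The ranges are apart for 15 of the 16 genes, and for *Ptgs2* they overlap (0.54 to 31.9 TPM without hCG and 3.3 to 22.9 TPM post-hCG).

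The counts in the following paragraphs are of members tested in each of 24 gene lists, and the shares of all tested genes to read them against are those given above, 29.7% higher and 30.4% lower. The lists were written with earlier results of these data known. At the start of the signal, the LH receptor gene *Lhcgr* (chromosome 17, 88716481 to 88791990) was at 1.11 to 119 TPM without hCG (median 10.7) and at 129 to 470 TPM post-hCG (median 295), a log2FC of 4.20 (SE 0.47, FDR = 2.65e-09). The no-hCG libraries spread widely, with 1 at 119 TPM, and still lay below all post-hCG libraries. The FSH receptor gene *Fshr* was at a median of 3.21 and 3.05 TPM, and its log2FC of 0.11 did not pass (SE 0.26, FDR = 0.72). Of 13 tested genes of gonadotropin receptors and cAMP signaling, 4 rose and 3 fell. *Pde4d*, a cAMP phosphodiesterase, went from a median of 0.44 to 2.6 TPM (log2FC 1.96, SE 0.35), and in rows C and G alone it did not pass (1.08, FDR = 0.1). *Prkaca*, the catalytic subunit of protein kinase A, rose by 1.47, while its regulatory subunit *Prkar2b* went from 43.1 to 10.1 TPM (log2FC −1.97, SE 0.22). Another phosphodiesterase gene, *Pde7b*, went from 1.55 to 8.23 TPM to 0.2 TPM or less (log2FC −5.79, SE 0.39), without overlap.

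EGF-like ligands carry the LH signal from mural granulosa cells to the cumulus in the first hours after LH. Of 11 list genes 5 were tested. *Ereg* (epiregulin) rose from a median of 0.425 to 4.57 TPM (log2FC 3.00, SE 0.41, FDR = 1.68e-07) and *Erbb2*, a receptor of the family, fell (−0.38). *Btc*, *Tgfa* and *Egfr* did not pass (0.57, −0.00 and −0.10). *Areg* (amphiregulin) was under the filter with 93 counts post-hCG and 56 without hCG. At 12 h, levels of *Ereg*, *Btc*, *Tgfa* and *Areg* were thus low in both media, 14.8 TPM or less in each library.

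The list of prostaglandin synthesis, receptors and breakdown held *Ptgs1* and 10 more tested genes, and 5 of the 11 rose and 1 fell. *Ptgs2*, the inducible cyclooxygenase COX-2, was at a median of 3.05 TPM without hCG and 9.08 TPM post-hCG. All 13 post-hCG libraries lay above the no-hCG median, but 6 of the 14 no-hCG libraries stood at 8.99 TPM or more, and the log2FC of 0.84 did not pass (SE 0.42, FDR = 0.0797). It passed with the replicate number as a block (1.23, FDR = 0.0191) and in rows D and H alone (2.04, FDR = 0.000242). *Ptgfr*, the receptor of prostaglandin F2alpha that later ends luteal function, rose from a median of 0.025 to 2.57 TPM (log2FC 4.63, SE 0.34). *Akr1b7*, an aldo-keto reductase with prostaglandin F synthase activity, rose by 1.55 (SE 0.45, FDR = 0.00324), but not in rows C and G alone (0.45, FDR = 0.576). The terminal prostaglandin E synthase *Ptges* fell from 17.9 to 5.98 TPM (log2FC −1.13, SE 0.14), below the no-hCG median in 13 of 13 libraries, and *Ptges2* rose by 1.08.

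The progesterone receptor gene itself, *Pgr*, had 11 counts post-hCG and 19 without hCG at this time and was not tested. Of 9 tested genes of the list of the receptor and its reported ovulatory targets 6 rose and 2 fell, and the groups did not overlap for the 6 that rose. *Edn2* is given above. *Adcyap1*, the neuropeptide PACAP (chromosome 17, 93199017 to 93206537), went from 0 to 0.55 TPM (median 0.165) to 7.63 to 51.6 TPM (median 14.0), a log2FC of 7.01 (SE 0.40, FDR = 3.61e-16). *Rgcc*, a regulator of the cell cycle, went from 8.59 to 57.9 TPM (median 29.9) to 630 to 1837 TPM (median 1290), a log2FC of 5.55 (SE 0.26). *Adamts1*, a protease that cleaves the proteoglycan versican, went from 8.39 to 29.7 TPM (median 15.7) to 124 to 493 TPM (median 283), a log2FC of 4.21 (SE 0.19). The lowest post-hCG value was over 4 times the highest no-hCG value for *Adamts1* and over 10 times for the other 2. *Prkg2*, a cGMP-dependent kinase, rose by 3.41 and *Ctsl*, the lysosomal protease cathepsin L, by 2.35, from a median of 1309 to 5856 TPM. The nuclear receptor gene *Pparg* did not pass (0.28, FDR = 0.234), and *Hif1a* (−0.75) and *Epas1* (−1.33), the alpha subunits of the hypoxia-inducible factors, fell. *Il6*, *Snap25*, *Zbtb16* and *Cxcr4* were under the filter, each with more counts post-hCG (177, 158, 77 and 76) than without hCG (19, 45, 14 and 7).

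Promoters of the 4 genes of this list that rose at least 16-fold are printed with those of *Runx2*, a transcription factor gene that rose with them, and *Gja1*, an abundant gene that fell. They run from 250 bases before to 50 after the start in RefSeq (GRCm38.p6), 5′ to 3′ on the gene's strand, and capitals mark matches on either strand to 5 words: the cAMP response element (CRE) TGACGTCA, its core TGACG, the NR5A word AAGGTCA, the RUNX word TGTGGT and the AP-1 word TGANTCA. The core is part of the CRE, so matches of these can overlap.
Edn2 (chr4:120160956-120161255, + strand): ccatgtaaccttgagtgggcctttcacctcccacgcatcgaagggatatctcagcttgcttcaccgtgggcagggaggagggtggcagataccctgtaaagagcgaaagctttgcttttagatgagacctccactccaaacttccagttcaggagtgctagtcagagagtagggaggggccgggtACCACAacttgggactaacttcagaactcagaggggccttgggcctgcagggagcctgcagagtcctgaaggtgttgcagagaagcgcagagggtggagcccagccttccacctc
Adcyap1 (chr17:93198767-93199066, + strand): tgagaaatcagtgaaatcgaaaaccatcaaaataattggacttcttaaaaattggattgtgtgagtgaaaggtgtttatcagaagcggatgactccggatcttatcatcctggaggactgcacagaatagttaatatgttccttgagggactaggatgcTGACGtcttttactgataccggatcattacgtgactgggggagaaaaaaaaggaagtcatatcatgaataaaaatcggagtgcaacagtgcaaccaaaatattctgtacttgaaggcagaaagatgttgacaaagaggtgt
Rgcc (chr14:79301586-79301885, - strand): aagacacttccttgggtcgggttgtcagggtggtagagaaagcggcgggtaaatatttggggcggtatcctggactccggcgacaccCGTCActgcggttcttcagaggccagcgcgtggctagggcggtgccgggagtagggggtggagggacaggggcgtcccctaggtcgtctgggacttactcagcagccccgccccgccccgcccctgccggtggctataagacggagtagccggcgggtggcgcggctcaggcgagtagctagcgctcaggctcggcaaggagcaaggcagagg
Adamts1 (chr16:85803064-85803363, - strand): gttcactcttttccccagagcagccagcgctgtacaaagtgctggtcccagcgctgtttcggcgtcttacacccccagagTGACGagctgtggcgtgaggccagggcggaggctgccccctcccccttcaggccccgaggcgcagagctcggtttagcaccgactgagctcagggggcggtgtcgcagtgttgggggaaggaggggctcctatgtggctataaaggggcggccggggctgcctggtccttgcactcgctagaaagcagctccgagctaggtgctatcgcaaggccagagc
Runx2 (chr17:44814578-44814877, - strand): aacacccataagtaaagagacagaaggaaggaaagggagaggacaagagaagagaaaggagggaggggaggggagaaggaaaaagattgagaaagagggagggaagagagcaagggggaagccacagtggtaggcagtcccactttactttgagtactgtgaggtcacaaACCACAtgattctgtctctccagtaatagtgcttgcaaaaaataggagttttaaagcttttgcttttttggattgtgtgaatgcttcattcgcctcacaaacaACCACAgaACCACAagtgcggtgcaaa
Gja1 (chr10:56377050-56377349, + strand): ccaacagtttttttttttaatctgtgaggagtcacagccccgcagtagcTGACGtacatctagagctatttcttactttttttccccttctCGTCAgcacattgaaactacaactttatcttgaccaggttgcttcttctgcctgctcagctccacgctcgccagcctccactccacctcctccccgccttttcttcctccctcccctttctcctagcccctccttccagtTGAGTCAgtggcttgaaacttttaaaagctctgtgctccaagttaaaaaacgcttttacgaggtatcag
*Edn2* held 1 RUNX word, *Adcyap1*, *Rgcc* and *Adamts1* 1 CRE core each, *Runx2* 3 RUNX words, and *Gja1* 2 CRE cores and 1 AP-1 word. The RUNX word occurred in 16.8% of all 32851 promoters, in 11.6% of the 8312 promoters of tested genes, in 15.4% of 838 promoters of genes at least 2-fold higher and in 10.1% of 643 promoters of genes at least 2-fold lower. The CRE core occurred in 20.8%, 32.8%, 29% and 26.6% of these sets, the full CRE in 1.79%, 3.02%, 2.15% and 1.87%, the NR5A word in 4.72%, 3.01%, 3.1% and 2.02%, and the AP-1 word in 7.81%, 4.78%, 6.8% and 5.13%. RefSeq promoters matched 6458 of the 8531 tested genes, and a match is a description of letters only.

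Of 15 tested genes of the list of luteinizing transcription factors, 7 rose and 5 fell. *Runx2* (chromosome 17, 44495987 to 44814797), a RUNX factor of the LH response, went from 5.14 to 22.4 TPM (median 10.7) to 325 to 661 TPM (median 503), a log2FC of 4.99 (SE 0.16, FDR = 4.3e-22). Its relative *Runx1* rose from a median of 7.05 to 48.7 TPM (log2FC 2.79, SE 0.20) and *Fosl1*, an AP-1 subunit, from 0.31 to 3.92 TPM (log2FC 3.76, SE 0.26), in each case without overlap. *Nr5a2*, an orphan receptor that drives luteal steroidogenesis, rose by 1.56 and *Nr5a1*, its relative that also acts in granulosa cells, by 0.37. *Nr4a1*, an immediate early gene, was above the no-hCG median in 13 of 13 post-hCG libraries (60.7 against 14.8 TPM). However, no-hCG libraries at 191, 211 and 250 TPM lay above all post-hCG libraries (97.8 TPM at most). The log2FC of 0.18 for *Nr4a1* did not pass (SE 0.51, FDR = 0.777). *Gata4* (−0.78), *Gata6* (−1.28), *Nrip1* (−1.61) and *Fosl2* (−1.10) fell. *Crem*, a cAMP-responsive repressor, also fell (−0.83, FDR = 0.0128), but not in rows D and H alone (−0.05, FDR = 0.843). *Cebpa* and *Cebpb* were under the filter, with 214 and 116 counts post-hCG against 52 and 38.

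Genes of progesterone synthesis rose at several steps, 9 of 14 tested, and 2 fell. *Cyp11a1*, the side-chain cleavage enzyme that makes pregnenolone from cholesterol (chromosome 9, 58006411 to 58027023), went from 15.1 to 390 TPM (median 66.0) to 2732 to 6169 TPM (median 4272), a log2FC of 5.48 (SE 0.45, FDR = 1.92e-12). Its electron donors rose too, *Fdx1* from a median of 387 to 7100 TPM (log2FC 4.07, SE 0.20) and *Fdxr* from 20.4 to 188 TPM (3.48, SE 0.16). *Star*, which brings cholesterol into mitochondria, went from 0.76 to 33.6 TPM (median 3.49) to 92.1 to 169 TPM (median 136), a log2FC of 3.95 (SE 0.43), and *Scarb1*, the HDL receptor, rose by 2.22. The groups did not overlap for these 5 genes, and the no-hCG libraries varied over a wider range for *Cyp11a1* and *Star*. *Hsd3b1*, which makes progesterone from pregnenolone, was already at a median of 3320 TPM without hCG and at 5484 TPM post-hCG (log2FC 0.79, SE 0.22, FDR = 0.00276). It did not pass without the 6 theca-rich libraries (0.46, FDR = 0.0786) or in rows D and H alone (0.45, FDR = 0.0696). *Akr1c18*, which breaks progesterone down, did not pass (−0.20), and the cholesterol exporter of lysosomes *Npc1* fell (−0.75) while its partner *Npc2* rose (1.12).

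Of 4 tested genes of estrogen and androgen synthesis 2 rose and 2 fell. *Cyp19a1*, aromatase (chromosome 9, 54165937 to 54268110), went from 6.42 to 111 TPM without hCG (median 40.5) to 0 to 0.58 TPM post-hCG (median 0), a log2FC of −8.29 (SE 0.51, FDR = 2.1e-15), with 4228 counts against 11. *Hsd17b1*, which makes estradiol from estrone, went from 11 to 226 TPM (median 91.5) to 0.22 to 2.94 TPM (median 1.27), a log2FC of −6.27 (SE 0.53). Both were lower in each post-hCG library than in any no-hCG library. *Hsd17b7*, which acts in estradiol and in cholesterol synthesis, rose (1.24), as did *Srd5a1*, a steroid 5-alpha reductase (0.90). *Sult1e1*, which inactivates estrogen by sulfation, was under the filter with 164 counts post-hCG and 5 without hCG.

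Of 21 genes of cholesterol synthesis, all tested, 13 rose and 3 fell, with a median log2FC of 0.62 against −0.00 over all genes. *Dhcr7*, which makes cholesterol from 7-dehydrocholesterol, stood apart at 10.8 to 54.4 TPM without hCG (median 24.5) and 165 to 463 TPM post-hCG (median 324), a log2FC of 3.75 (SE 0.20, FDR = 5.3e-17). *Hmgcs1* rose by 1.53 (SE 0.17), *Lss* by 1.41 and *Sc5d* by 1.30, with overlap between the groups. *Fdft1* (−0.54), *Nsdhl* (−0.55) and *Tm7sf2* (−0.83) fell, and in rows C and G alone none of the 3 passed (−0.14, −0.18 and −0.25).

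Of 19 tested genes of the FSH-driven granulosa list, 15 were lower, each at least 2-fold and 12 of them without overlap. Another 1 was higher, and the median log2FC was −2.32. *Inha*, the inhibin alpha subunit (chromosome 1, 75507077 to 75510366), went from 3151 to 13424 TPM (median 9027) to 712 to 1323 TPM (median 1051), from rank 8 to rank 98 by median TPM (log2FC −2.88, SE 0.21, FDR = 1.97e-13). *Inhba*, the activin and inhibin beta A subunit (chromosome 13, 16011851 to 16031621), went from 76.8 to 3940 TPM (median 1119) to 11.8 to 48.9 TPM (median 25.7), a log2FC of −5.42 (SE 0.53, FDR = 1.55e-10). The no-hCG libraries thus spanned a wide range for *Inhba*, and all 14 lay above the post-hCG libraries. *Gja1*, connexin 43 of granulosa gap junctions (chromosome 10, 56377330 to 56402513), went from 1577 to 5606 TPM (median 3603) to 110 to 203 TPM (median 134), a log2FC of −4.55 (SE 0.20, FDR = 4.22e-19). *Esr2*, the estrogen receptor beta, fell from a median of 28.7 to 0.7 TPM (log2FC −5.24, SE 0.33), *Nap1l5*, a nucleosome assembly protein gene, from 250 to 8.24 TPM (−4.75, SE 0.45) and *Fst*, follistatin, from 88.1 to 19.3 TPM (−1.91, SE 0.25). *Amhr2* (−1.93), *Npr2* (−2.22), *Foxo1* (−2.32), *Kitl* (−2.39) and *Bmpr1b* (−2.91) fell as well. *Ccnd2* (0.20), *Igf1r* (0.13) and *Inhbb* (−0.04) did not pass. *Ccnd2*, cyclin D2, was at a median of 12.7 TPM without hCG and 14.3 TPM post-hCG, with post-hCG libraries at 135 and 100 TPM and a no-hCG library at 63.5 TPM. *Nppc*, the ligand of *Npr2* that holds meiosis, was under the filter with 358 counts without hCG, found in all 14 libraries, and 5 post-hCG. The summed level of the granulosa markers was 3677.6 to 16475.6 TPM without hCG (median 10973.5) and 1116.8 to 2684.6 TPM post-hCG (median 1799.8). By median, *Inha* made up most of this sum. *Inha*, *Amh*, *Amhr2*, *Esr2*, *Foxl2*, *Hsd17b1* and *Kitl* are both markers and members of this list, so the marker sum is not independent of it. Of 10 tested markers 8 fell and *Nr5a2* rose.

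**Figure D4:**
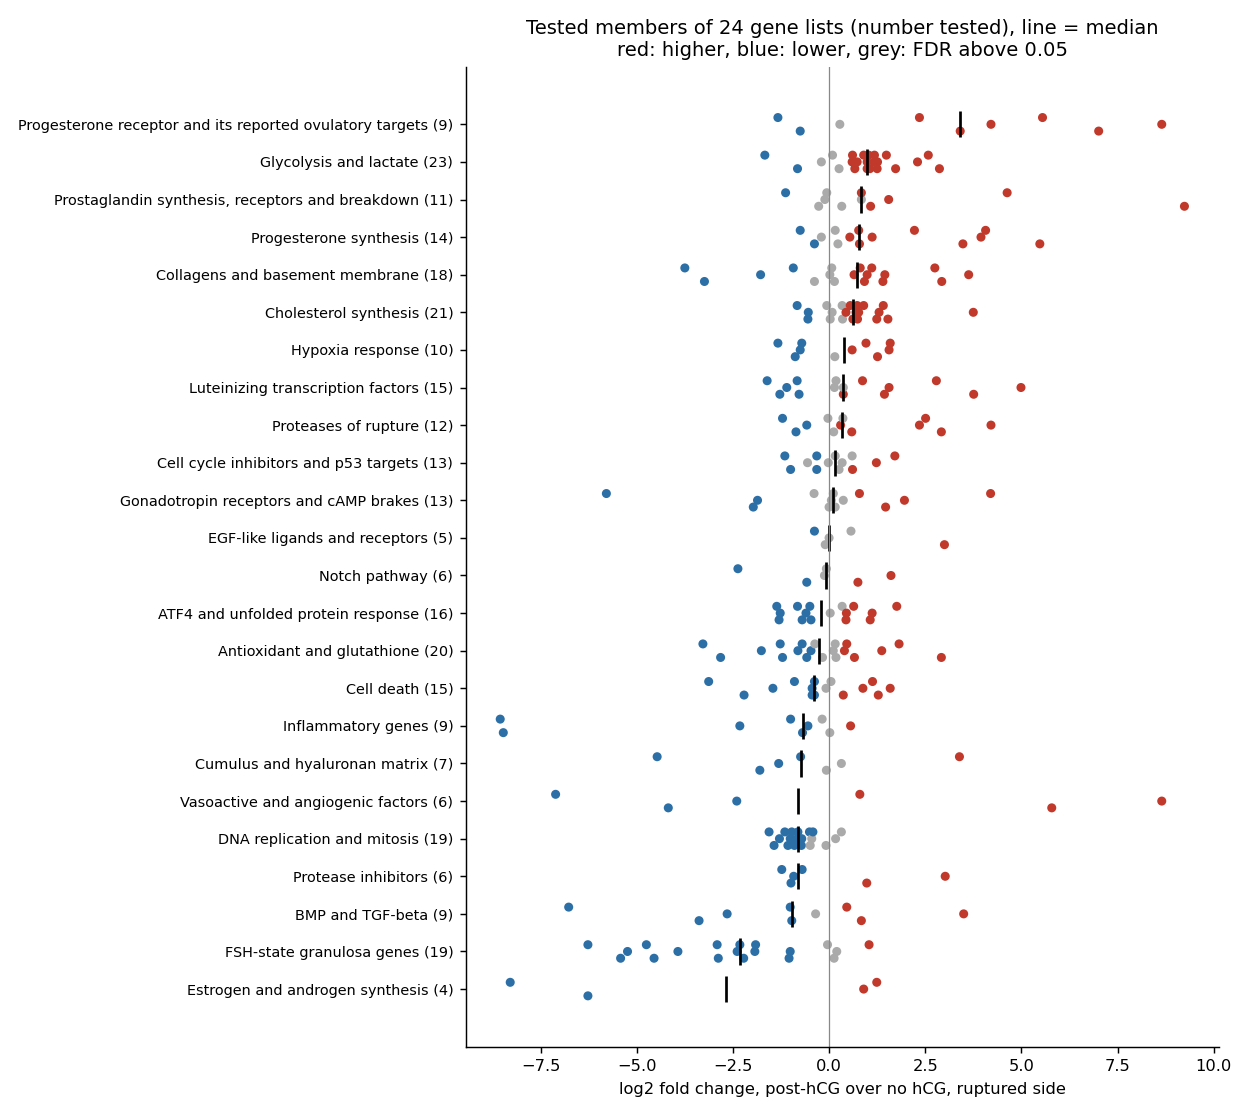
Each point is a tested member of 1 of 24 gene lists, at its log2 fold change on the ruptured side (x axis, post-hCG over no hCG), red for higher, blue for lower and grey for an FDR above 0.05, with a line at the list's median. Lists are ordered by that median, from estrogen and androgen synthesis (−2.68) and the FSH-driven granulosa genes (−2.32) to the progesterone receptor targets (3.41).

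The matrix that the cumulus lays down is built from hyaluronan and versican. *Vcan*, versican, went from 22.5 to 81.3 TPM (median 38.1) to 199 to 666 TPM (median 340), a log2FC of 3.39 (SE 0.19), and was the single gene of 7 tested in this list that rose, while 4 fell. *Tnfaip6*, which links hyaluronan, was above the no-hCG median in all 13 post-hCG libraries (14.1 against 6.05 TPM), but 1 no-hCG library reached 90.3 TPM and the log2FC of 0.32 did not pass (SE 0.41, FDR = 0.511). It passed with DESeq2 (0.94, FDR = 0.0184), with the replicate block (0.92, FDR = 0.044) and in rows D and H alone (1.80, FDR = 1.35e-06). *Cd44*, the hyaluronan receptor, fell from a median of 31.2 to 6.28 TPM (log2FC −1.80, SE 0.31). *Has2*, hyaluronan synthase 2, had 295 counts without hCG, found in all 14 libraries, and 8 post-hCG, and *Ptx3* and *Hapln1* had fewer than 50 in either medium.

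Of 12 tested genes of proteases linked to rupture 6 rose and 3 fell. Beside *Adamts1* and *Ctsl*, *Mmp19* rose from a median of 0.545 to 4.03 TPM (log2FC 2.92, SE 0.27) and *Adamts4* from 1.19 to 8.69 TPM (2.51, SE 0.30). *Adamts5* (0.59) and the lysosomal *Ctsd* (0.30) rose less, and *Ctsd* was at −0.04 with library totals. *Mmp11* (−1.21), the membrane protease *Mmp14* (−0.86) and *Plau*, the urokinase plasminogen activator (−0.58), fell, though *Plau* did not pass without the theca-rich libraries (−0.31, FDR = 0.207) and *Mmp14* not in rows D and H alone (−0.47, FDR = 0.0653). Among 6 tested protease inhibitors 2 rose and 4 fell. *Timp1*, a metalloproteinase inhibitor (chromosome X, 20870166 to 20874735), went from 38.6 to 793 TPM (median 124) to 1321 to 2361 TPM (median 1753), a log2FC of 3.02 (SE 0.33, FDR = 1.77e-09), without overlap. Its relative *Timp3* fell (−1.23, SE 0.26, and −0.41 without the theca-rich libraries), as did *Serpine2* (−0.92), the protease nexin. *Timp4* was under the filter with 230 counts post-hCG and 5 without hCG.

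Collagen and basement membrane genes divided. Of 18 tested 10 rose and 4 fell, and without the theca-rich libraries 13 rose and none fell. *Loxl2*, a lysyl oxidase that crosslinks collagen, went from 7.09 to 55.7 TPM to 223 to 463 TPM (median 303), a log2FC of 3.63 (SE 0.26), and *Lox* rose from a median of 3.07 to 26.4 TPM (2.93, SE 0.33). *Col18a1*, a basement membrane collagen, rose by 2.75, *Col4a2* by 1.45 and *Col4a1* by 1.40 (SE 0.43), the last reaching 3.26 without the theca-rich libraries. The 4 that fell were *Col1a2* (−3.75), *Col3a1* (−3.24), *Col6a2* (−1.78) and *Nid1* (−0.93). *Col3a1*, a fibrillar collagen and 1 of the theca markers, ran from 0.05 to 437 TPM without hCG (median 17.0) and from 0.82 to 41.0 TPM post-hCG (median 3.67). Its log2FC was 0.64 without the theca-rich libraries (FDR = 0.448), those of *Col6a2* and *Nid1* were 0.41 and 0.48 (FDR = 0.267 and 0.13), and *Col1a2* was then under the filter. *Col3a1* is in the sum by which these libraries were picked, and all of them are no-hCG libraries. A weaker fall of *Col3a1* without them, and of genes that vary with it, therefore follows in part from the choice. *Fn1*, fibronectin, did not pass (−0.38, FDR = 0.395) and without these libraries was higher post-hCG (0.86, FDR = 0.0273).

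Vasoactive and angiogenic factors went both ways, 3 of 6 tested higher and 3 lower. *Apln*, the vessel growth peptide apelin, went from 0 to 1.38 TPM (median 0.11) to 8.65 to 21.6 TPM (median 14.8), a log2FC of 5.79 (SE 0.32, FDR = 1.19e-16). *Ece1*, which cuts endothelins to their active form, rose by 0.80, while the endothelin receptor gene *Ednra* fell from 3.62 to 0.64 TPM (−2.40, SE 0.20). *Thbs1*, the antiangiogenic matrix protein thrombospondin 1, went from 201 to 1253 TPM (median 463) to 0.39 to 6.98 TPM (median 3.43), a log2FC of −7.11 (SE 0.42, FDR = 6.99e-16). *Angpt2*, a ligand that loosens vessels, fell from a median of 6.5 to 0.24 TPM (−4.18, SE 0.31). *Edn1* had 47 counts without hCG and 0 post-hCG, and *Vegfa* 56 and 84, under the filter.

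Inflammatory genes were mostly lower: 6 of 9 tested fell and 1 rose. Beside *Cxcl1* and *Vcam1*, *Icam1*, another leukocyte adhesion molecule, fell from 7.05 to 1.53 TPM (log2FC −2.32, SE 0.18) and *Il1r1*, the interleukin-1 receptor, from 8.16 to 3.63 TPM (−1.0). *Cxcl12*, which rose (0.56, FDR = 0.043), did not pass in 7 of 11 alternatives. Of 15 members under the filter, *Cxcl2* and *Ccl2* had 224 and 145 counts without hCG and 4 and 2 post-hCG, whereas *Il6* had 19 and 177. Immune cell markers were low in both media, at sums of 40.3 TPM or less.

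Of 9 tested BMP and TGF-beta genes 3 rose and 5 fell. *Bmp2*, a BMP ligand, went from 74.5 to 342 TPM (median 172) to 0.09 to 3.25 TPM (median 1.1), a log2FC of −6.77 (SE 0.35, FDR = 1.86e-17). The Id genes, which are BMP targets and encode inhibitors of helix-loop-helix factors, split: *Id3* fell from a median of 264 to 28.6 TPM (−3.38, SE 0.18), *Id2* rose from 89.5 to 1239 TPM (3.50, SE 0.29), and *Id1* rose by 0.46 (FDR = 0.0449). *Id1* did not pass in 8 of 13 alternatives. The BMP antagonist *Grem1* fell by 1.01 on the log2 scale (FDR = 0.00518). In the Notch list 2 of 6 rose and 2 fell, with the receptor *Notch2* higher (1.61, SE 0.10) and the target *Hey2* lower (−2.37, SE 0.20).

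Glycolytic genes rose together, 18 of 23 tested, with 2 lower and a median log2FC of 0.99. *Pfkfb3*, whose product activates phosphofructokinase, went from 1.09 to 7.03 TPM (median 3.58) to 15.1 to 30.9 TPM (median 23.8), a log2FC of 2.87 (SE 0.15, FDR = 1.99e-17). *Hk2*, hexokinase 2, rose from a median of 0.92 to 4.4 TPM (2.58, SE 0.21) and *Pgam1*, phosphoglycerate mutase, from 298 to 789 TPM (1.73, SE 0.12), both without overlap. *Ldha*, whose product makes lactate from pyruvate, rose from 2582 to 4207 TPM (0.99, SE 0.12) and *Ldhb*, the other lactate dehydrogenase subunit, fell from 41.8 to 11.3 TPM (−1.67, SE 0.12). *Aldoc* fell too (−0.82), though not in rows C and G alone (−0.18, FDR = 0.691). With library totals the list still had 17 higher and 3 lower. The hypoxia list, which shares *Slc2a1* and *Pdk1* with it, had 5 of 10 higher, led by *Bnip3* (1.59, SE 0.21) and *Ndrg1* (1.56), and 4 lower, *Bnip3l*, *Hif1a*, *Kdm3a* and *Epas1*.

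No tested gene of DNA replication and mitosis rose and 14 of 19 fell, with a median log2FC of −0.81. *Ccnb2*, cyclin B2, went from a median of 4.59 to 1.73 TPM (−1.56, SE 0.37) and *Cdk1*, its kinase, from 13.3 to 5.55 TPM (−1.29, SE 0.32), with overlapping ranges. Without the theca-rich libraries 1 gene of this list, *Tyms*, rose (0.45, FDR = 0.0161), against 0.32 and an FDR of 0.0543 with them. Among 13 tested cell cycle inhibitors and p53 targets 3 rose and 4 fell. *Cdkn1a*, which encodes p21, rose from a median of 182 to 369 TPM (1.23, SE 0.18) and *Cdkn2d*, which encodes p19, from 2.9 to 9.33 TPM (1.71, SE 0.18), while *Cdkn1b*, which encodes p27, fell from 6.87 to 2.63 TPM (−1.0, SE 0.17). In the cell death list 5 of 15 rose and 8 fell, with a median of −0.38. The antiapoptotic *Bcl2l1* (1.13) and *Mcl1* (0.88) rose and *Bcl2* fell (−3.13). Of the genes that promote cell death, *Bnip3* (1.59), *Aifm1* (1.28) and *Bad* (0.37) rose and *Bcl2l11* (−2.21), *Bid* (−1.46), *Casp8* (−0.44) and *Casp9* (−0.38) fell.

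Of 16 tested genes of the list of ATF4 and the unfolded protein response 6 rose and 8 fell. *Hsp90b1* went from 207 to 722 TPM (median 327) to 89.6 to 181 TPM (median 135), a log2FC of −1.30 (SE 0.16, FDR = 1.35e-08), and *Pdia4* (−1.27), *Herpud1* (−1.36) and *Hspa5* (−0.70) fell. *Psat1* (1.76), *Shmt2* (1.12) and *Asns* (1.07), enzymes of serine, glycine and asparagine synthesis, rose, as did *Atf4* (0.64), *Phgdh* (0.45), another enzyme of serine synthesis, and the chaperone gene *Hyou1* (0.44). In rows C and G alone *Hspa5* did not pass (−0.30, FDR = 0.191). In the antioxidant list 6 of 20 rose and 9 fell. The metallothionein genes *Mt2* (from a median of 24.5 to 245 TPM, 2.92) and *Mt1* (from 134 to 496 TPM, 1.82) rose, and the glutathione transferase genes *Gstm1* (from 524 to 65.3 TPM, −3.28) and *Gstm2* (from 516 to 92.5 TPM, −2.82) fell. The Gstm genes are close copies, so reads may be split between them. With library totals the medians of 3 lists turned from positive to negative: proteases (−0.02), gonadotropin receptors and cAMP genes (−0.19) and cell cycle inhibitors (−0.18).

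Over whole libraries, mitochondrially encoded genes took 4.12% ± 0.922 of the counts post-hCG (SD, n = 13) and 6.88% ± 1.22 without hCG (n = 14), a difference of −2.75 percentage points (two-sided permutation test, p = 2e-05, the smallest that 100000 resamples can give, 0.0001 after Benjamini-Hochberg adjustment over 5 library measures). Ribosomal protein genes took 4.05% ± 0.618 and 5.27% ± 0.819 (permutation p = 0.00016, adjusted 0.0004). Genes with at least 1 count numbered 13780 ± 362 post-hCG and 14027 ± 308 without hCG, a difference that did not pass (permutation p = 0.066, 0.11 after adjustment). After thinning to the smallest library, which gives all libraries the same depth, the difference was −630 genes (permutation p = 2e-05). The 10 most counted genes took 22.9% and 23.0% (permutation p = 0.909). The distance of a library from the mean of the others in its group was 0.514 ± 0.0559 post-hCG and 0.548 ± 0.048 without hCG in log2(TPM + 1), a difference that did not pass (permutation p = 0.0975, adjusted 0.122).

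On the unruptured side, hCG changed 4947 of 9320 tested genes (53.1%), 25.4% higher and 27.7% lower, with a split of 1455 higher and 3844 lower with library totals and of 2207 and 1623 with limma. Of the 8444 genes tested on both sides, 5064 were called on the ruptured and 4555 on the unruptured side, and 3593 in the same direction on both, which is 71% of the calls of the ruptured and 78.9% of those of the unruptured side. The log2FC of the sides had a Pearson's r of 0.906 across these genes, which are not independent replicates, and 65 genes were called in opposite directions. The difference between the hCG effects was tested as an interaction in all 4 groups, and 892 of 10013 genes passed (8.91%), 426 with a more positive (4.25%) and 466 with a more negative (4.65%) response on the ruptured side. With library totals the split was 230 against 660 and with limma 85 against 679, so it depends on the scaling. Of 344 interaction genes that moved the same way on both sides, 305 (88.7%) had the larger change on the ruptured side, 161 of 169 among those that fell and 144 of 175 among those that rose. These 344 were chosen by passing the interaction, whose split depends on the scaling. The share among all 3593 genes called in the same direction is not given here, so 88.7% does not describe the response in general. Libraries of both sides may come from the same follicles, which the labels do not tell.

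Some of the FSH-driven granulosa genes were among those with a larger fall on the ruptured side. *Inhba* fell by 5.42 on the log2 scale on this side and by 1.89 on the unruptured side (interaction log2FC −3.54, SE 0.68, FDR = 0.000383), and *Inha* by 2.88 and 1.11 (−1.78, SE 0.33, FDR = 0.000237). *Nap1l5* (−2.65), *Gja1* (−1.25) and *Grem1* (−1.40) had the same sign, and 6 of the 19 genes of this list passed the interaction. The paper lists *Inhba* and *Nap1l5* among the top genes of the putative ruptured side (no hCG), so both started higher there than on the other side. The part of this higher start in the larger fall was not tested. *Thbs1* (−3.51, FDR = 0.000271), *Vcam1* (−3.08), *Cxcl1* (−2.55), *Bmp2* (−1.66) and *Pde7b* (−3.54) also fell further on the ruptured side. Among genes that rose, *Cyp11a1* (5.48 against 3.42, interaction 2.07, FDR = 0.0113), *Runx2* (0.83), *Psap* (1.08), *Heg1* (1.59), *Lox* (1.88), *Col18a1* (1.46), *Prkg2* (1.96) and *Mmp19* (1.43) rose further on the ruptured side. The paper reports *Cyp11a1* as enriched on the putative unruptured side (no hCG), so it started lower on the ruptured side. The part of this lower start in its larger rise was not tested.

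Genes of cholesterol synthesis and of the unfolded protein response list differed in the other sense. On the unruptured side 20 of the 21 cholesterol genes rose and none fell, and 8 passed the interaction, each more negative on the ruptured side. *Fdft1*, squalene synthase, was called in opposite directions (−0.54 ruptured, 0.67 unruptured, interaction −1.22, SE 0.26, FDR = 0.00114), as was *Nsdhl* (−0.55 and 0.76). Of the ATF4 and unfolded protein response genes 8 passed the interaction, each more negative on the ruptured side, among them *Calr* (−0.60 and 0.64, interaction −1.24, FDR = 0.000559), *Hspa5* (−0.94), *Hsp90b1* (−1.03) and *Pdia4* (−0.99). *Ptges* also went in opposite directions, from 17.9 to 5.98 TPM in median on the ruptured side (−1.13) and upward on the unruptured side (0.49), with an interaction of −1.63 (SE 0.19, FDR = 3.52e-08). *Rgs2* (−2.41), *Gfpt2* (−2.22), *Akr1b7* (−2.96) and *Slc2a3* (−2.01) were more negative on the ruptured side as well. For *Lhcgr* (0.30, FDR = 0.855), *Ptgs1* (1.61, FDR = 0.307), *Adcyap1* (−0.85, FDR = 0.614), *Star* (1.12, FDR = 0.182) and *Cyp19a1* (−2.86, FDR = 0.306) a difference between the sides was not detected, which does not show that the responses were alike.

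**Figure D5:**
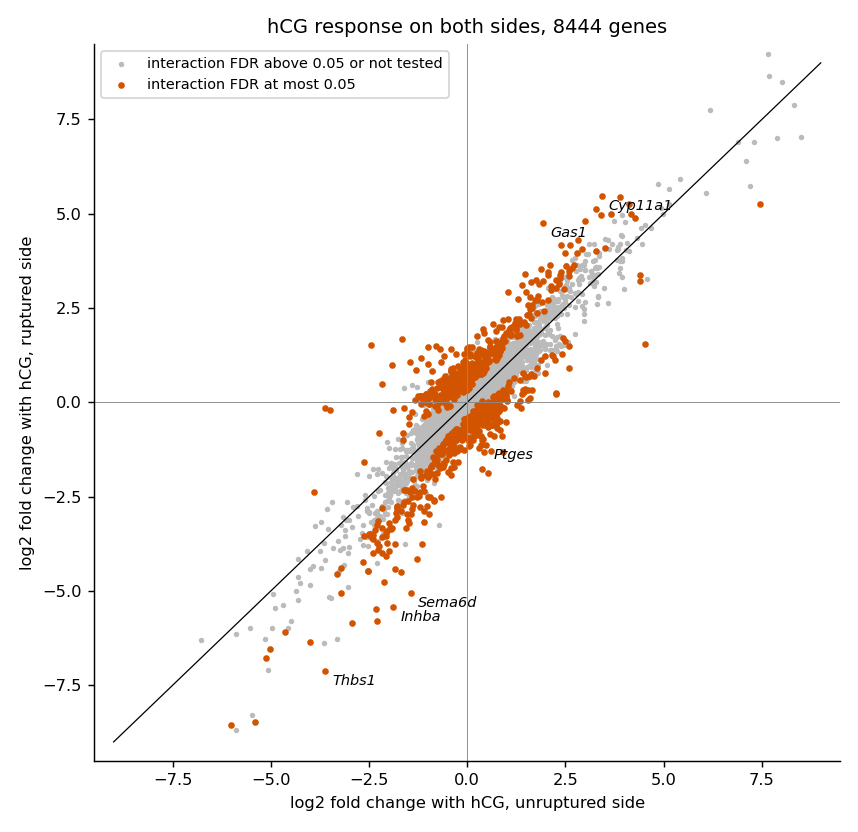
Each point is 1 of 8444 genes tested on both sides, with the log2 fold change with hCG on the unruptured side on the x axis and on the ruptured side on the y axis, a diagonal line of equal change, and orange for an interaction FDR of at most 0.05. Among genes that fell, orange points lie mostly below the diagonal, *Thbs1* (−7.11 on the ruptured side) and *Inhba* (−5.42) included, and *Ptges* (−1.13) lies in the quadrant of opposite change.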

How the data were processed

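RNA was measured by Smart-Seq2 with Nextera XT libraries from manually cut follicle sides. The authors aligned reads to GRCm38 with HISAT2 and name ComBat-seq for batch correction, while the counting program and its annotation are not given in the sources used here. The authors deposited estimated counts per gene, of which 71.4% of the values above 0 were whole, and TPM values per gene, which sum to 610685 to 678417 per library. Whether the deposited counts precede or follow the batch correction is not given either, and such a correction can narrow the spread between libraries and so lower p-values. Groups came from the sample titles. The table held 25149 genes, of which 20569 had a count in the 27 libraries.

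Estimated counts were rounded to whole numbers, filtered with filterByExpr (minimum count 10, minimum total 15), scaled with TMM factors and tested with the quasi-likelihood F-test of edgeR 4.0.16 in R 4.3.3, with p-values adjusted by Benjamini-Hochberg over all tested genes (FDR threshold 0.05). The ruptured side was fitted alone, the unruptured side likewise, and the interaction over all 4 groups. TPM were used for levels only. Alternatives used DESeq2 1.42.0, limma 3.58.1 on log2(TPM + 1), other scalings and filters, thinned counts, a replicate block and left-out libraries. Library measures were compared by two-sided permutation tests with 100000 resamples (scipy 1.17.1). The fits were tested on simulated data. No 2 libraries of a group agreed within sampling noise (chi-square per gene 4.97 or more). Counting intervals and floors cover counting error only.

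Named genes were the 10 genes each way with the highest absolute log2FC among those past the FDR threshold with a mean of at least 10 CPM in the higher group and a count in each of its libraries, the 8 with the largest difference in mean CPM, the 6 with the largest interaction log2FC in each direction, and members of 24 lists. The members and lists were chosen with earlier results of these data known. A table of sample annotations was not used here. Results for some list members are not reported here.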

Additional observations from a re-analysis of the deposited data

Results flagged for a closer look

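The response to hCG differed between the sides, by the interaction test of edgeR over all 4 groups, for 426 genes with a more positive and 466 with a more negative response on the ruptured side, a split that was 230 against 660 with library totals and 85 against 679 with limma. The 12 genes with the largest interaction log2FC, 6 in each direction, are given here with their values.

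Among genes with the more positive response, *Gas1*, a growth arrest gene of the cell surface, was at a median of 2.08 TPM on the putative ruptured side (no hCG) and 51.0 TPM post-hCG, and at 3.31 and 10.6 TPM on the unruptured side (interaction 2.84, SE 0.49). *Rpl9-ps6*, a ribosomal protein pseudogene whose reads may be shared with its parent gene, had an interaction of 3.95 (SE 0.85) and ran from 0 to 247 TPM post-hCG on the ruptured side. The clone-named genes *RP24-149G20.1* (3.45), *RP23-42H18.6* (3.34), an additional clone-named gene (3.31) and *RP24-317P24.1* (2.89) had 87.9%, 79.1%, 88.8% and 77.4% of the counts of the unruptured no-hCG group in 1 library, its replicate 1. Without that library their interactions were 0.64 (FDR = 0.541), 1.30 (FDR = 0.0184), 0.37 (FDR = 0.761) and 0.95 (FDR = 0.0548), and that of *Gas1* was 2.93.

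Among genes with the more negative response, *Serpinb2*, a plasminogen activator inhibitor, rose on the unruptured side from a median of 2.0 to 15 TPM, while on the ruptured side the medians were 0.08 and 0.18 TPM and 1 no-hCG library reached 17.6 TPM (interaction −4.97, SE 1.02). *Sema6d*, a semaphorin, went from a median of 2.04 TPM to 0 on the ruptured side and from 1.89 to 0.825 TPM on the unruptured side (−3.63, SE 0.46), and *Has2* from 1.48 to 0.06 and from 0.38 to 0.145 TPM (−3.59, SE 0.72). *Insl3*, a theca hormone gene and 1 of the theca markers, went from a median of 1.49 TPM (highest 185) to 0 on the ruptured side. On the unruptured side its medians were 33.3 TPM without hCG (highest 299) and 40.3 TPM post-hCG (highest 76.1). In the fit over all 4 groups its log2FC was negative on both sides, −5.18 ruptured and −0.85 unruptured (interaction −4.33, SE 1.44, FDR = 0.0464). Of 5 tested theca markers 3 fell and 1, *Mgarp*, rose on the ruptured side, and their part in this result was not tested. The clone-named *RP23-162H6.1* (−4.33) and *RP23-186O3.11* (−3.56) complete the list.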

How the results depend on the processing

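Of the 5129 genes changed on the ruptured side, 95.2% kept their call with DESeq2, 99.7% with its size factors in edgeR, 92.8% without a filter, 77.5% with library totals and 71.8% with limma on log2(TPM + 1), none with a reversed call. Left-out libraries and the plate rows were chosen after seeing the data: 69.9% of the calls held in rows C and G alone, 77.9% in rows D and H alone, 96.1% without the library with oocyte markers and 88% without the theca-rich libraries, where 1 call reversed. Fewer libraries were tested in these fits. Library totals gave 1376 higher, 4242 lower and 1251 at least 2-fold lower genes, and limma 1568 higher. Genes at least 2-fold higher and lower numbered 1405 and 1562 with DESeq2 and 1605 and 1817 without a filter, where more genes were tested (15385 and 20569). On the unruptured side library totals gave 1455 higher and limma 1623 lower genes, and for the interaction library totals gave 230 genes with a more positive and 660 with a more negative response, and limma 85 and 679. The cause of these shifts was not tested. The difference in detected genes was −456 at 1 TPM or more (permutation p = 0.00348) and −630 after thinning (permutation p = 2e-05), and that in distance −0.0424 after thinning (permutation p = 0.0142), −0.0605 over genes with a mean of 10 TPM or more (permutation p = 0.044) and −0.0293 without a filter (permutation p = 0.0207), so both passed in those settings. Without the theca-rich libraries *Nid1* (0.48), *Col6a2* (0.41), *Col3a1* (0.64), *Fn1* (0.86) and *Gpx3* (1.45, FDR = 0.000935) changed sign, as did *Ctsd* (−0.04) and *Prkar1a* (−0.27) with library totals and *Notch1* (−0.06) with limma. The theca-rich libraries were picked by a sum that holds *Col3a1*, so the change of sign of *Col3a1* follows in part from the choice. Over 319 named genes, 3840 of 4055 alternative values kept direction and call, 155 lost the call, 52 gained it and 8 reversed.

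The replicate numbers of the titles did not pair the samples: over 13 pairs the deviations of same-numbered libraries correlated at −0.05 to 0.16 (median 0.04), 1 pair was over 0.1, and 1 post-hCG library correlated best with its own number. With the replicate block 2475 genes were higher and 2514 lower, 4882 of the calls were kept, and 12 calls of named genes changed, those of *Ptgs2* and *Tnfaip6* included. *Pgr*, with 11 counts post-hCG and 19 without hCG, was too low to be tested at this depth, and *Areg* did not pass in the fit over all 4 groups (0.81, FDR = 0.156).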
